A study of Mus musculus with 7 samples.

Results

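The genes Abca5, Abca6, Abca8a, Abca8b and Abca9 lie side by side on mouse chromosome 11 and encode transporters of the ATP-binding cassette (ABC) subfamily A. They were selected by gene symbol, as the 5 members of this cluster among the 27179 genes counted. The selection was made with the genotype comparison of the same libraries in view: Abca8a and Abca6 are in the study's list of leading genes for that comparison, and the other members are their neighbours. Differences between genotypes are therefore given for the members as a description, without a test. All 5 members passed the filter on low counts and are among the 15073 genes tested.

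RNA was sequenced from the cortical bone of femora of 12-week-old female mice on a C57BL/6 background, after the ends were removed and the marrow was flushed. The comparison was between 3 mice labelled Dmp1Cre.EfnB2f/f and 4 Dmp1Cre controls. Both groups carry Dmp1Cre, a Cre recombinase under the Dmp1 promoter, which is active mainly in osteocytes, and the f/f label marks floxed alleles of Efnb2, the gene for the membrane-bound signalling protein EphrinB2. The study asked what changes in bone when EphrinB2 is removed from osteocytes. Each library is 1 mouse, and a femur holds many cell types that Dmp1Cre does not target. Some mice share parents. Dmp1Cre.EfnB2f/f mice 1 and 2 came from the cross labelled 76x78, and controls 1 and 2 from 85x87. Dmp1Cre.EfnB2f/f mouse 3 and control 3 came from 47x42, and control 4 from 84x86.

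Library totals ranged from 18119947 to 19119250 counts in the Dmp1Cre.EfnB2f/f group and from 17245556 to 22075778 in controls. Counts of the targeted gene were higher, not lower, in the Dmp1Cre.EfnB2f/f group. Efnb2 had 18.1, 13.3 and 12.0 CPM (counts set to a common library total with edgeR's TMM factors) in the 3 Dmp1Cre.EfnB2f/f mice, and 8.60, 8.03, 6.52 and 6.44 in controls. Its log2 fold change was 0.96 (SE 0.21), with an edgeR quasi-likelihood adjusted p of 0.510. The exact two-sided permutation p was 0.0286, the smallest possible with 35 splits. The study reported effective targeting by PCR of the deleted region in sorted osteocytes of other mice, with Efnb2 retained in cells that are not osteocytes. Counts over the whole gene in whole bone do not show whether the floxed part was removed in osteocytes. Every direction below therefore refers to the label alone, and the 3 libraries are called f/f-labelled. Of the 15073 genes, 0 (0%) passed an adjusted p of 0.05 by edgeR, 1456 had an unadjusted p under 0.05, and DESeq2 called 72. The study itself, by limma with sample weights and a day term, called many genes in each direction at a false discovery rate under 0.05, Abca8a and Abca6 among them.

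ABC transporters use ATP to move substrates across membranes. Those of subfamily A are large proteins that mostly handle lipids, and Abca1, the best known, passes cellular cholesterol to apolipoprotein A-I. The Abca5 to Abca9 genes arose by tandem duplication in mammals and are less well understood. Work on the human genes has linked ABCA8 to cholesterol efflux and the level of high-density lipoprotein, and ABCA6 to low-density lipoprotein cholesterol. Abca5 sits on lysosomal and endosomal membranes, and transcripts of Abca6 and Abca9 respond to cholesterol loading in macrophages. Abca8a and Abca8b are mouse copies that correspond to the single human ABCA8.

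The cluster spans 405.5 kb of chromosome 11 (GRCm38, positions 109932206 to 110337723). In chromosome order the genes are Abca8b, Abca8a, Abca9, Abca6 and Abca5, and all 5 are read from the minus strand. Abca8a covers 72.0 kb, from position 110025634 to 110097580, and only 3168 bases separate its higher position from Abca9. The gap from Abca9 to Abca6 is 6363 bases, that from Abca6 to Abca5 is 17592 bases, and that from Abca8b to Abca8a is 29359 bases. None of the 5 genes overlaps another annotated gene. Each has 39 exons in its longest coding transcript, with a coding sequence of 4860 bases in Abca8a and Abca8b, 4869 in Abca9, 4872 in Abca6 and 4926 in Abca5.

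The longest coding transcripts of the members shared no stretch as long as a read. Abca8a and Abca8b were the closest pair, with 74.8% identity over aligned coding bases and a longest identical run of 97 bases. Abca9 shared 71.0% with Abca8a and 71.1% with Abca8b, whereas Abca5 stood furthest away at 60.6 to 62.2% identity with the others. No window of 100 bases in the longest coding transcript of a member occurred in that of another member. Reads were 100 bases from each end of a fragment, so exact sharing of a read between members was not found, although reads that cross the identical runs differ by few bases.

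Promoter sequences are shown for the copies Abca8a and Abca8b, whose levels were higher in the f/f-labelled libraries, and for Abca5, the neighbour whose difference was close to its error. They come from the RefSeq table for GRCm38.p6 and run 5′ to 3′ on the minus strand, from 250 bases before an annotated start to 50 after it. Of the 5 members, 4 had an entry. Capitals mark CACGTG, the E-box bound by basic helix-loop-helix factors, and GGGCGG on either strand (CCGCCC when reversed), the GC box. The windows are chr11:110095888-110096187 for Abca8a, chr11:109995796-109996095 for Abca8b and chr11:110337667-110337966 for Abca5. Those of Abca8a and Abca8b lie inside the annotated genes, which reach up to 110097580 and 109996274. That of Abca5 spans the upper end of its gene, at 110337723, so the starts compared are not alike in position.
Abca8a: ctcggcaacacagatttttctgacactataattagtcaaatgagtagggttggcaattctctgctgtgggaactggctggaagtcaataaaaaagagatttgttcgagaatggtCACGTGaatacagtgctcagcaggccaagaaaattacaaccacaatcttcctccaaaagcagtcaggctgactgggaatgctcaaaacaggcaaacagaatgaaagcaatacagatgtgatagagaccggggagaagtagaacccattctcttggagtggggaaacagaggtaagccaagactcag
Abca8b: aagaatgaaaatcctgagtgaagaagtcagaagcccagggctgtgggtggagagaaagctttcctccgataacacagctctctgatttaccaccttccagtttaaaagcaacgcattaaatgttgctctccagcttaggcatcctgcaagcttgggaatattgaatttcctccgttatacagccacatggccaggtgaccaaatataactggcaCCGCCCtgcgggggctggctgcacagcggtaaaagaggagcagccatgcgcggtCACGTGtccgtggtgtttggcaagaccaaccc
Abca5: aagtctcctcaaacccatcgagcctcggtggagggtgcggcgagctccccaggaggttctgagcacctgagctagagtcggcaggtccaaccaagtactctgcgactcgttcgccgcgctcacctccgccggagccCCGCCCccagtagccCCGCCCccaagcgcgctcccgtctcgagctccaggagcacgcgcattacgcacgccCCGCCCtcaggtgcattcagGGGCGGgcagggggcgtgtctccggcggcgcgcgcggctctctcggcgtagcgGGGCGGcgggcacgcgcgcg

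The promoter windows were of different kinds. That of Abca5 had 72.3% G and C, 40 CpG dinucleotides and 5 GC boxes, and its CpG number was above 96.1% of the 32851 mouse promoters in the table. Abca8a had 44.3% G and C, 4 CpG and no GC box, against a median of 52.7% and 7 CpG over all promoters. Abca8b was intermediate, with 51.3% and 10 CpG, and Abca9 had 45.3% and 2 CpG. Both Abca8 copies held a single CACGTG, 136 bases before the start in Abca8a and 18 bases after it in Abca8b, each inside the shared run GGTCACGTG. CACGTG was present in 7.15% of all promoters, GGGCGG in 35.7% and the 9-base run in 1.11%. The searched letters CCAAT (37.4% of promoters), TATAAA (13.6%), GTAAACA (3.65%) and AGGTCA (16.3%), on either strand, were in none of the 4 member windows, and Abca9 held none of the 6 motifs. AGGTCA and GTAAACA are the core letters of nuclear receptor and forkhead sites, and a match or its absence in 300 bases describes the letters only.

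Abca8a and Abca9 were the most abundant members per length. Mean levels over the 7 libraries were 12.0 RPKM (CPM per kilobase of gene length) for Abca8a, 10.2 for Abca9, 4.02 for Abca8b, 2.53 for Abca6 and 2.19 for Abca5. In the controls alone Abca9 came first, at 9.61 ± 2.45 RPKM (SD, n = 4), with Abca8a at 8.79 ± 2.91 RPKM. The median of the 15073 tested genes in controls was 8.99 RPKM, so Abca8a and Abca9 sat near the middle of all expressed genes (percentiles 49.3 and 52.1), and Abca8b, Abca5 and Abca6 lay lower, at percentiles 25.6, 20.2 and 17.02.

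Neighbours in the order of mean log2 RPKM were compared by two-sided exact paired permutation tests over the 7 libraries, where the smallest possible p is 0.0156. Abca9 exceeded Abca8b in 7 of 7 libraries, by 1.43 on the log2 scale (exact p = 0.0156, adjusted over 4 pairs 0.0625). Abca8b exceeded Abca5 in 6 of 7 libraries, by 0.83 (exact p = 0.0313, adjusted 0.0625). Neither step passed after adjustment, but a single step at the smallest possible p reaches only 0.0625 and could not pass alone. The order was taken from the same values, and both groups were pooled. The ratio of Abca8a to Abca9 per length averaged 1.49 in the f/f-labelled libraries and 0.92 in controls, which widens their spread. Abca8a and Abca9 (log2 difference 0.16, 4 of 7 libraries, exact p = 0.359, adjusted 0.479), like Abca5 and Abca6 (log2 difference 0.01, 4 of 7 libraries, exact p = 0.984, adjusted 0.984), did not differ beyond their spread.

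**Figure D1:**
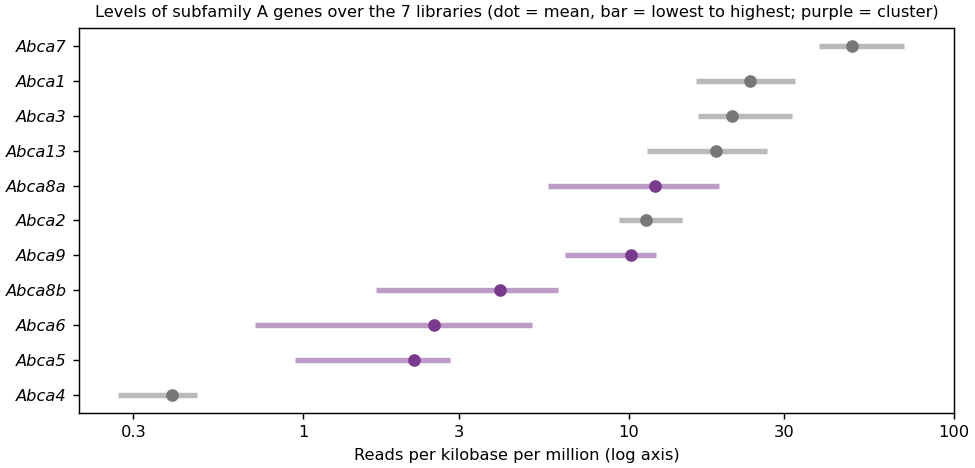
Levels of the subfamily A genes that passed the filter, in RPKM on a log axis; the dot is the mean and the bar the range over the 7 libraries. The 5 cluster members (purple) have means between 2.19 and 12.0, below Abca7, Abca1, Abca3 and Abca13 and above Abca4.

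Set beside the rest of subfamily A, the cluster was of middle to low abundance. Abca7, a phospholipid transporter of phagocytic cells, had the highest mean level at 48.5 RPKM, followed by Abca1 at 23.5, Abca3 at 20.8 and Abca13 at 18.6. Abca2, at 11.3 RPKM, fell between Abca8a and Abca9, and Abca4, the photoreceptor transporter, had 0.395 RPKM.

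Abca8a, Abca8b and Abca6 were higher in the f/f-labelled libraries than in controls on average, whereas Abca9 and Abca5 had differences no larger than about their standard errors. All 5 log2 fold changes were above 0 (Abca9 was at -0.0042 in the study's limma pipeline, which scales by quantiles), with a median of 0.89 against 0.01 over all tested genes. Among the members, 1 (Abca8b) had groups that did not overlap. Over all tested genes 5.04% were higher without overlap and 6.29% lower. Since the members were selected on this comparison, nothing is read from that count.

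**Figure D2:**
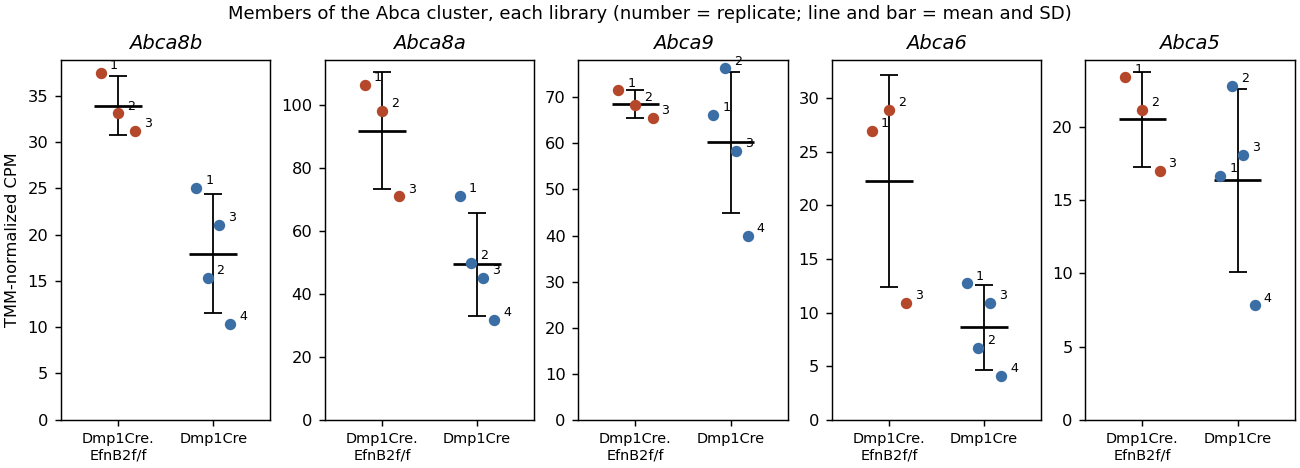
TMM-normalized CPM of each member in each library, numbered by replicate; the line and bar are the mean and SD of 3 Dmp1Cre.EfnB2f/f and 4 Dmp1Cre libraries, and each axis starts at 0. Only the Abca8b panel has groups that do not overlap, and control 4 is the lowest library in every panel.

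Abca8a had 106.2, 97.99 and 70.8 CPM in the 3 f/f-labelled libraries and 71.0, 49.9, 45.0 and 31.7 CPM in controls 1 to 4. Control 1 was level with the lowest of the first group, and the other controls lay below all of it. The means were 91.7 ± 18.5 (SD, n = 3) and 49.4 ± 16.3 (SD, n = 4), and the log2 fold change was 0.89 (SE 0.27).

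Abca8b followed the same course at a lower level. It had 37.5, 33.1 and 31.2 CPM against 25.1, 15.3, 21.1 and 10.4 CPM in controls, so that each f/f-labelled library was above each control. The means were 34.0 ± 3.22 (SD, n = 3) and 17.95 ± 6.46 (SD, n = 4), and the log2 fold change was 0.92 (SE 0.28). The ratio of Abca8a to Abca8b per length stayed between 2.35 and 3.58 in the 7 libraries, with means of 2.96 and 3.10 in the f/f-labelled libraries and in controls.

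Abca6 had the largest log2 fold change of the members, 1.37 (SE 0.44), and the largest standard error. Its CPM were 27.0, 28.9 and 10.9 against 12.7, 6.70, 10.9 and 4.07 in controls. The third f/f-labelled library fell within the controls, and the high mean (22.3 ± 9.88, SD, n = 3, against 8.61 ± 3.94, SD, n = 4) came from the other libraries of that group. Those libraries are of mice that share the parent cross 76x78. Relative to Abca9, its close neighbour on the chromosome, Abca6 per length was 0.413 and 0.463 in the first and second f/f-labelled libraries, 0.182 in the third, and 0.0963 to 0.211 in controls.

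Abca9 and Abca5 differed little. Abca9 had 71.6, 68.4 and 65.5 CPM against 66.2, 76.3, 58.4 and 39.9 CPM, with a log2 fold change of 0.19 (SE 0.22). Abca5 had 23.4, 21.2 and 17.03 CPM against 16.7, 22.8, 18.1 and 7.82 CPM, with a log2 fold change of 0.33 (SE 0.32). Controls 1 to 3 spanned the range of the other group or nearly so, and control 4 alone was well below it. Without control 4 the log2 fold changes were 0.03 for Abca9 and 0.09 for Abca5, and without control 2 they were 0.32 and 0.53. For Abca8a, Abca8b and Abca6 they were 0.73, 0.73 and 1.13 without control 4.

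The parents of the mice are a known grouping in the labels, and only the cross 47x42 gave a mouse of each genotype, the third f/f-labelled library and control 3. In that pair Abca8a was 70.8 and 45.0 CPM and Abca8b 31.2 and 21.1 CPM, higher in the f/f-labelled library. Abca6 was 10.9 CPM in both mice, Abca9 was 65.5 and 58.4 CPM, and Abca5 was 17.03 and 18.1 CPM. Outside this pair, cross and genotype cannot be told apart. Within it, genotype and day of collection cannot be told apart if these mice were collected on different days, which the labels do not give. The f/f-labelled mouse of the pair was also the lowest of its group for all 5 members. The fit with the cross as a block rests on the same pair and gave log2 fold changes of 0.66 for Abca8a, 0.57 for Abca8b, 0.17 for Abca9, -0.0027 for Abca6 and -0.09 for Abca5.

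Summed levels of some markers of other cells stood apart between the groups. The summed level of the 5 erythroid markers measured (Hbb-bt, the other listed marker, had no row) was 2637 to 4365 CPM in the f/f-labelled libraries and 4922 to 11290 CPM in controls, and control 4, the lowest library for all 5 members, was the highest of them. The 7 neutrophil markers summed to 12020 to 15080 against 17190 to 20080 CPM, again without overlap. The 10 skeletal muscle markers ran the other way, with 28770 to 42530 against 13600 to 30370 CPM, an overlap through control 3 alone, and all 10 had log2 fold changes above 0. None of these markers passed an edgeR adjusted p of 0.05. An unadjusted edgeR p under 0.05 was found for 3 erythroid, 1 neutrophil and 4 muscle markers, against 1456 of 15073 over all genes. The part of these cells in the members' values was not tested. In bulk bone, fewer cells of a type and less RNA per cell cannot be told apart.

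Sums of the other cell types overlapped between the groups. The 10 fibroblast markers summed to 1425 to 1707 CPM against 959 to 2800 in controls, the 8 adipocyte markers to 298.5 to 492 against 184.5 to 660, and the 8 osteoblast and osteocyte markers, none of which was at 0 in any library, to 8506 to 14120 against 8341 to 41260. Control 1 was the highest library in all 3 sums. Col1a1 alone made 7101 to 38770 CPM of the osteoblast and osteocyte sum, whereas Dmp1 had 57.1 to 236.5 CPM, so that sum mostly follows Col1a1. Of these 8 markers, 4 had log2 fold changes above 0, with a median of 0.02. The 7 endothelial markers summed to 989 to 1070 against 800 to 1478 CPM, a sum of which Vwf made 448.2 to 1061 CPM. Singly, 6 of the 7 had log2 fold changes above 0, and 3 had an unadjusted edgeR p under 0.05, against 1456 of 15073 over all genes. The same 3 were higher without overlap, against 5.04% over all genes. They were Tek at 0.54 (SE 0.15), Flt1 at 0.59 (SE 0.16) and Emcn at 0.44 (SE 0.18), named after their values were seen, each with an edgeR adjusted p of 0.510. Their part in the members' values was not tested either. Summed levels of the 6 macrophage markers (538.5 to 592.5 against 546 to 796 CPM), 6 Schwann cell markers (120 to 127 against 112 to 171) and 6 B lineage markers (257 to 310.5 against 203 to 309) overlapped likewise.

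With the genotype means removed, the members tended to be high or low in the same libraries. Control 4 was below its group mean for all 5, by 0.55 (Abca9) to 0.95 (Abca5) on the log2 scale. In control 1, Abca6 (0.69), Abca8a (0.58) and Abca8b (0.56) were highest above their means, and in control 2 Abca5 (0.58) and Abca9 (0.38) were. Among f/f-labelled libraries the largest deviation was that of Abca6 in the third (-0.90). The third f/f-labelled library and control 4 were the lowest of their groups for all 5 members, and over all tested genes the deviations of this pair of libraries had a correlation of 0.48, the highest of the 12 pairs between the groups. The study collected its mice on separate days, with 1 mouse of each genotype on the second, and the labels do not assign the days. In the order of the deposited samples this pair comes last, which would fit that second day. A part of the day in this shared variation was not tested.

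**Figure D3:**
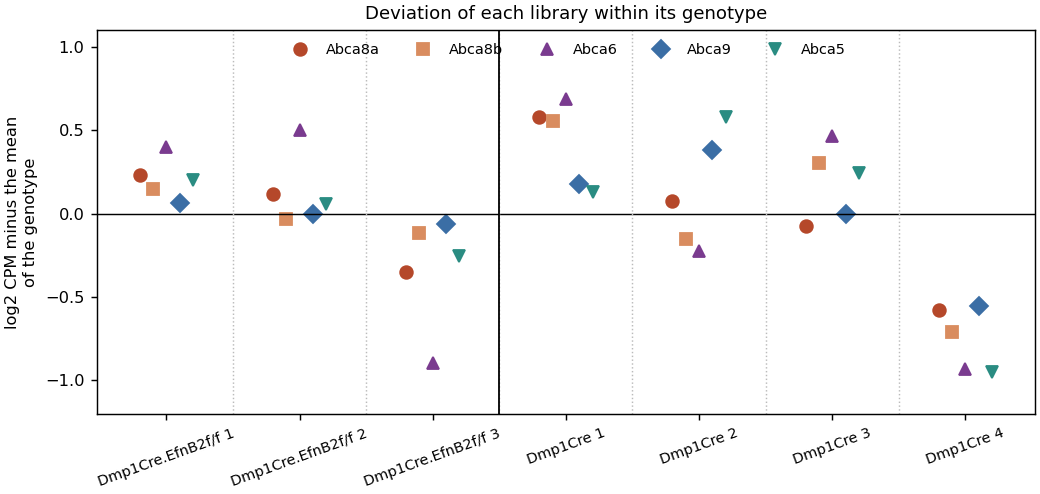
Deviation of each member's log2 CPM from the mean of its genotype, per library, with 3 Dmp1Cre.EfnB2f/f libraries to the left of the black line and 4 controls to the right. All 5 members are below 0 in control 4 (-0.55 to -0.95), and Abca6 is at -0.90 in Dmp1Cre.EfnB2f/f 3.

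Pearson correlations of these deviations over the 7 libraries ran from 0.54 to 0.95 over the 10 pairs of members, and Spearman correlations from 0.36 to 0.86. By Pearson, Abca5 and Abca9 were the closest pair (0.95), although Abca6 lies between them on the chromosome. Abca6 with Abca8a (0.86), Abca8a with Abca8b (0.84) and Abca6 with Abca8b (0.83) came next, whereas the direct neighbours Abca6 and Abca9 had the lowest value (0.54). By Spearman the order differed: Abca6 with Abca8b was highest (0.86), Abca5 with Abca9 was at 0.75, and Abca6 with Abca9 (0.54) was above 3 pairs at 0.36. The points share libraries and depth, and the values rest much on a few mice. For each pair, the 2 libraries farthest from the median of its first member in name order were left out, so the libraries left out differ between pairs. The correlations then ranged from -0.74 to 0.89, and that of Abca5 and Abca9 was 0.52.

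The 10 other genes whose deviations were most like the mean profile of the members had Pearson correlations of 0.98 to 0.99 over 7 libraries. In order they included Ednrb (the endothelin receptor B), 4930556M19Rik, Nova1 (a neuronal splicing factor), Agmo (alkylglycerol monooxygenase, which cleaves ether lipids), Cav2 (caveolin-2), C1qtnf7, Rad51ap2, Map3k8 (a kinase) and Insig2 (which holds the sterol sensor in the endoplasmic reticulum). As many as 232 of 15068 genes exceeded 0.9. Which genes came first depended on single mice: without control 1, 0 of these 10 remained among the first 10, and without control 4, 1 did.

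The genes on either side of the cluster did not move as a block. Of the 5 nearest protein-coding genes on each side, 8 were tested and 2 (1700012B07Rik and Gm11677) were under the filter. Their median log2 fold change was -0.01, 4 of 8 were above 0, and 0 passed an edgeR adjusted p of 0.05 (DESeq2 called 0). An unadjusted edgeR p under 0.05 was found for 2 of 8, against 1456 of 15073 over all genes. On the side of Abca8b, Fam20a, a pseudokinase of the secretory pathway, was at 0.33 (SE 0.30), Prkar1a, a regulatory subunit of protein kinase A, at -0.02 (SE 0.15), Wipi1, an autophagy protein, at -0.09 (SE 0.15) and Arsg, a lysosomal sulfatase, at -0.45 (SE 0.18). Arsg was 14.8, 19.0 and 18.5 CPM against 25.1, 20.1, 23.1 and 27.1 CPM, lower without overlap.

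On the side of Abca5, Map2k6, a kinase upstream of p38, was at 0.28 (SE 0.20), Kcnj16 at -0.32 (SE 0.32) and Sox9, the chondrocyte factor, at 0.00 (SE 0.65). Kcnj2, an inward-rectifier potassium channel 728.4 kb from the cluster, had 66.1, 56.9 and 45.8 CPM against 31.6, 31.4, 39.4 and 19.8 CPM. All 3 f/f-labelled libraries were above all controls, at a log2 fold change of 0.88 (SE 0.24) and an edgeR adjusted p of 0.510. Map2k6 and Kcnj16, nearer to the cluster than Kcnj2, had groups that overlapped.

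**Figure D4:**
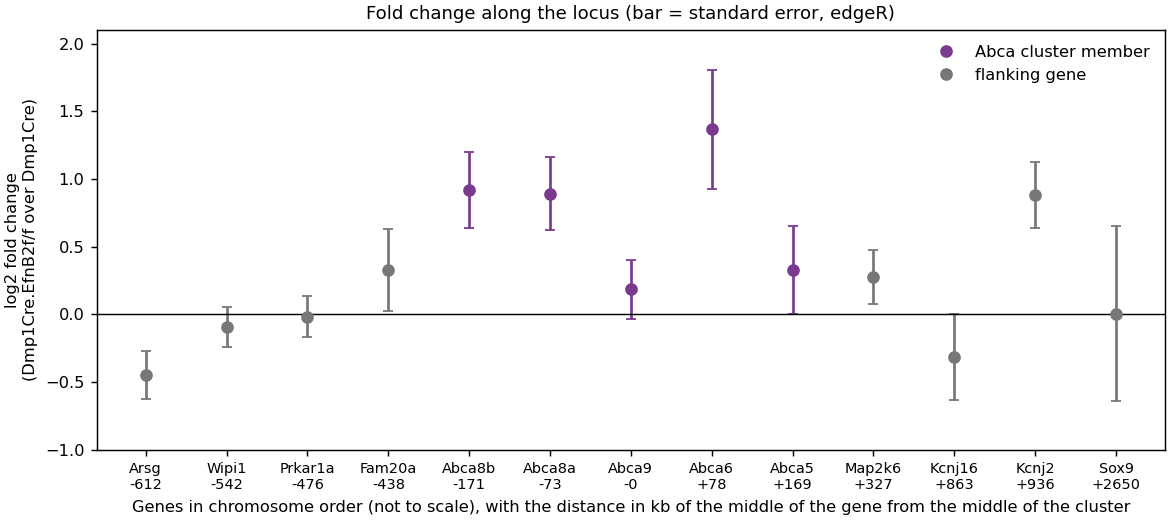
Log2 fold change (f/f-labelled libraries over controls, edgeR) with its standard error for the 5 cluster members (purple) and the 8 tested flanking genes (grey), in chromosome order. Abca8b, Abca8a and Abca6 are at 0.89 to 1.37, and of the flanking genes Kcnj2 is at 0.88 and the others between -0.45 and 0.33.

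Outside the cluster, ABC transporters did not rise together. Of 45 genes, 34 were tested, 14 of them had log2 fold changes above 0 and the median was -0.10. By edgeR 0 of 34 passed an adjusted p of 0.05 and DESeq2 called 0. An unadjusted edgeR p under 0.05 was found for 3 of 34, against 1456 of 15073 over all genes. Groups did not overlap for 1 that was higher and 4 that were lower, against 5.04% and 6.29% over all genes. The lowest p-values belonged to Abcb1a and Abcb1b, which are paralogous drug-efflux pumps, and to Abcg4, a sterol exporter. Abcb1a was at 1.04 (SE 0.31), Abcb1b at 0.67 (SE 0.24) and Abcg4 at -0.77 (SE 0.25), each with an edgeR adjusted p of 0.510. Abcg4 is also in the study's list of leading genes, where it was called lower by limma with a day term.

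Within subfamily A, the 6 tested genes outside the cluster had a median log2 fold change of -0.17. Abca3, the surfactant lipid transporter, was at -0.42 (SE 0.20) and Abca7 at -0.41 (SE 0.20), both lower in all 3 f/f-labelled libraries than in every control, with edgeR adjusted p of 0.516 and 0.517. Abca3 had 105.1, 110.9 and 120.7 CPM against 138.8, 129.2, 128.9 and 204.8 CPM. Abca1 was at 0.33 (SE 0.23), Abca4 at 0.42 (SE 0.26), Abca2 at -0.19 (SE 0.20) and Abca13 at -0.14 (SE 0.33), all with overlapping groups. Abca12, Abca14, Abca15, Abca16 and Abca17 were under the filter, and none of them exceeded 0.474 CPM in any library.

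The genes of cholesterol efflux and lysosomal sterol handling were examined because the members are lipid transporters. All 20 were tested, 7 had log2 fold changes above 0, the median was -0.23, and 0 passed an edgeR adjusted p of 0.05 (DESeq2 called 0). An unadjusted edgeR p under 0.05 was found for 1 of 20, against 1456 of 15073 over all genes. The lowest p-values were those of Abcg4, of Srebf2, the master factor of sterol synthesis, at -0.54 (SE 0.29, adjusted p = 0.517), and of Lpcat3, a phospholipid-remodelling enzyme induced by the sterol sensor LXR, at -0.46 (SE 0.27, adjusted p = 0.533). Srebf2 had 66.8, 64.2 and 96.1 CPM against 117.8, 82.2, 77.4 and 164.2 CPM, with control 4 highest.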

How the data were processed

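Femoral RNA of 7 mice was sequenced as paired reads from TruSeq libraries. The deposited values are raw counts per gene: per the labels the authors ran bcl2fastq 2.17.1.14 and featureCounts on mm10, and per the study's methods Rsubread aligned the reads and supplied the annotation. Whether counting used strand is not given in the sources used here. The files held 27179 genes, of which 16302 had at least 0.65 CPM in at least 3 libraries. Predicted, unnamed, pseudogene, ribosomal RNA, immunoglobulin, T cell receptor, and Y chromosome or Xist entries (1229) were left out, so that 15073 were tested. This reading of the gene classes is a choice made here.

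Counts were fitted for all genes by edgeR 4.0.16 (R 4.3.3) with TMM factors and the robust quasi-likelihood test, and p-values were Benjamini-Hochberg adjusted over 15073 genes. A positive log2 fold change is higher in the f/f-labelled libraries. Levels per length divide CPM by the gene length in the files. Alternatives used DESeq2 1.42.0 and limma 3.58.1, the latter with the steps of the study. The scripts were tested on simulated data. The study fitted the day of collection, which the labels do not give, so the main fit has no such term, and all 12 ways of placing 1 mouse of each genotype on the second day were tried.

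Named genes were the members, the 10 genes most like them (1 is not reported here), the 5 genes on each side, subfamily A, the 3 lowest p-values in each other list where none passed, and Efnb2. Members, lists and motifs were chosen with earlier results of these data known. The labels number separate mice, and p-values measure the spread between them. The main fit does not account for parents that some of the mice share.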

Additional observations from a re-analysis of the deposited data

Results flagged for a closer look

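Control 4 stood apart from the other controls in 5 of the 39 named genes tested, by the ratio of its gap to the nearest of them to the range of the group (Dixon's test). The ratio was 0.870 for Abca3, 0.892 for Abca7, 0.870 for Abcg4 and 0.856 for Lpcat3, each higher in control 4. These are 4 of 29 genes, where chance would give about 1 in 20, or 1.45, if the genes were independent. All 4 values come from the same mouse, and Abcg4 and Lpcat3 were named for their p-values in these libraries. Nothing is therefore read from that comparison. The ratio was 0.906 for Map3k8, lower in control 4, but this gene was named for its likeness to the members, whose profile is lowest in control 4, so chance gives no measure for it or for the other 9 genes named that way. The 5 members were tested and 0 passed the limit.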

How the results depend on the processing

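Abca8a and Abca8b kept their direction under each of the alternatives run (0.57 to 1.16 on the log2 scale), whereas the other members did not. With the parent cross as a block, Abca5 was at -0.0868 and Abca6 at -0.0027. In the study's limma pipeline Abca9 was at -0.0042 without a day term, and over the 12 day assignments the lowest values were -0.118 for Abca5, -0.0147 for Abca9 and 0.569 for Abca6. That pipeline called 7 ABC transporters outside the cluster, 2 flanking genes and 5 lipid efflux genes without a day term, and at most 13, 4 and 8 with one. Over all genes it called 2269 without a day term and 0 to 4957 with one, the most with f/f-labelled 3 and control 4 on the second day. These numbers stand against 0 by edgeR, 0 by limma-voom without sample weights and 72 by DESeq2. The cause was not tested.

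Of the 10 genes most like the members, 5 remained when genotype means were kept, 2 by Spearman correlation, and 0 to 5 when a library was left out. Same-numbered mice did not deviate together (correlations over genes -0.14, 0.06 and -0.42, where the highest of the 12 pairs was 0.48, f/f-labelled 3 with control 4), so the numbers do not pair them. With the replicate block the log2 fold changes were 0.10 (Abca5), 1.06 (Abca6), 0.74 (Abca8a), 0.75 (Abca8b) and 0.04 (Abca9), 1 gene was called and 576 had an unadjusted p under 0.05. Scaling by library size alone moved the median of all genes from 0.01 to 0.09. No step between neighbouring levels passed adjustment in the 9 alternatives for the order of levels. The 4 controls alone are too few to pass and the settings without 1 library could hardly do so, so this says nothing of stability. The members had 74 to 1887 counts per library, fewest for Abca6 in control 4, and counting error was not separated from the spread between mice.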
